A study of Homo sapiens with 6 samples.

Results

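The genes described here encode the machinery that docks, primes, fuses and retrieves synaptic vesicles. They were 55 of the 47470 genes listed, taken by symbol, and comprised 13 synaptotagmins, 12 SNAREs, 5 SNARE regulators, 8 RAB3 proteins and effectors, 5 priming and active zone proteins, 7 vesicle proteins and 5 proteins of vesicle recycling. By their textbook tissue distribution, 33 members were placed in a neuronal class, 13 in a broad class and 9 in a mixed class of genes found in neurons and in many other tissues. The counts were not a criterion of the class, but the classes were set with earlier results of these data known. RNA-seq was performed on HEK293T cells, a line made from human embryonic kidney to which the SV40 large T antigen was added. The untreated libraries (n = 3) came from cells labelled WT that received no drug, and the VPA-treated libraries (n = 3) from the same line after exposure to valproic acid (VPA) at 1 mM for 1 day. VPA inhibits histone deacetylases and is also an antiseizure drug. The only labelled difference between the groups was the drug. The line is of kidney origin, so the values are transcript counts outside nervous tissue.

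In a nerve terminal, vesicles carrying transmitter are held at the active zone, where RAB3 and RIM proteins tether them and UNC13 proteins prime them. Fusion is driven by SNAREs, a family in which a vesicle protein (a VAMP) zips together with a syntaxin and a SNAP protein of the target membrane. Synaptotagmins bind calcium and trigger the final step, complexins clamp and assist the assembled SNAREs, and dynamin and amphiphysin retrieve the membrane afterwards. Most of these families also have members that every cell uses for secretion, which makes a comparison of neuronal and broad paralogs possible within the same libraries.

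The libraries held 18622267 to 18828495 reads counted on genes, so the depth was nearly equal, and the biological coefficient of variation of the fit was 3.83%. Between replicates of a group the chi-square per gene was 1.78 to 5.5, above the value that sampling alone gives. The labels do not say that the triplicates were separate cultures, so p-values measure the spread between these libraries. All 1437 chromosome X genes were listed at 0 in every library, including PGK1 and HPRT1, which every cell uses. No member lies on that chromosome. Values below are normalized counts, that is, read counts divided by the effective library size (TMM) relative to the mean of the libraries. A member was called higher or lower where its adjusted p was under 0.05, and up-regulated where its log2 fold change also reached 1 (down-regulated, -1), from edgeR's quasi-likelihood test with Benjamini-Hochberg adjustment over 15298 genes.

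The promoters of 6 members are shown because they set 2 strongly changed synaptotagmins and 2 recycling genes of the neuronal class against 2 broad genes, BIN1 (the paralog of AMPH) and SNAP23 (the paralog of SNAP25). Each is the 150 bases before the first listed RefSeq start (GRCh38.p14), written 5′ to 3′ on the strand of the gene, with the letters of the GC box (GGGCGG on either strand) in capitals. The starts used for SYT9 and SNAP23 lie inside the annotated span of the gene, so they are not its outermost starts.
SYT2 promoter, chr1:202710455-202710604, minus strand: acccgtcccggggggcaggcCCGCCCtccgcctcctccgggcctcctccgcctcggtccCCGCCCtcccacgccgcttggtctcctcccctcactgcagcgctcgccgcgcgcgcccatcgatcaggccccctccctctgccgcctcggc
SYT9 promoter, chr11:7251754-7251903, plus strand: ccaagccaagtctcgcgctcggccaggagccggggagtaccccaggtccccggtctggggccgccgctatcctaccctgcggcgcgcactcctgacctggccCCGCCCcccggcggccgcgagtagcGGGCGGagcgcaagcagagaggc
DNM1 promoter, chr9:128203229-128203378, plus strand: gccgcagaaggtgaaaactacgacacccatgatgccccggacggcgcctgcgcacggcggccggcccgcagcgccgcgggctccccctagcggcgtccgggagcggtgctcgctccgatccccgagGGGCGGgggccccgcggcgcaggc
AMPH promoter, chr7:38631374-38631523, minus strand: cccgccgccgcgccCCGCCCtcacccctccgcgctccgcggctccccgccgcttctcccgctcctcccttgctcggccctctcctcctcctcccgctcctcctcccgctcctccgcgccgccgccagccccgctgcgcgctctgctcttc
BIN1 promoter, chr2:127107155-127107304, minus strand: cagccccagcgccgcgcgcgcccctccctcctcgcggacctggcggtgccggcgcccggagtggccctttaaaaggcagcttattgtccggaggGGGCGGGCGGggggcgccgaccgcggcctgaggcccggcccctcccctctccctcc
SNAP23 promoter, chr15:42495484-42495633, plus strand: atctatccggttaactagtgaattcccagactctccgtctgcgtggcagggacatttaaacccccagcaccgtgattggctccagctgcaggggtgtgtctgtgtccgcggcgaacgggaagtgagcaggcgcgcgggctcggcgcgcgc
The SYT2, SYT9 and BIN1 windows held 2 GC boxes each, and those of DNM1 and AMPH 1 each. The BIN1 copies overlapped. The SNAP23 window held 0 copies. The windows were rich in CpG, from 15 sites in SNAP23 to 24 in DNM1.

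A RefSeq promoter was matched by symbol for 45 of the 55 members. Those without a match were RIMS2, SYT12, UNC13D, SYT13, CPLX1, SYT7, SYN3, SYNGR3, SNAP25 and SYT17. Over the 250 bases before the start, the GC box letters were present in 37 of the 45 members (82.2%), against 66.8% of the 11739 promoters of genes tested and 42.3% of all 27305 promoters. The share was 80.8% in the neuronal class, 71.4% in the mixed class and 91.7% in the broad class. Of the matched members that were up-regulated in VPA-treated cells, 14 of 16 (87.5%) held it. The median number of CpG sites was 23.5 in the neuronal and 23.5 in the broad class, so neither measure set the classes apart. The letters TATAAA were in 0 of the 45 windows, in 5.23% of the promoters of genes tested and in 11.1% of all promoters.

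REST, a repressor of neuronal genes in other tissues, binds an element whose left part contains CAGCACC and whose right part contains GGACAG. The left letters were in 8 of the 45 windows (17.8%) and in 6.07% of all promoters, on either strand. They were in 26.9% of neuronal and 8.33% of broad members. The right letters were in 14 windows (31.1%) and in 17.1% of all promoters, and in 34.6% of neuronal and 33.3% of broad members. Of the 16 matched members that were up-regulated, 3 (18.8%) held the left letters and 3 (18.8%) the right letters. Both in order within a gap of at most 11 bases occurred in 1 member, RPH3A, and in 0.128% of all promoters. That match is shown because it was the sole member window with both parts. It lay 181 bases before the first listed start, which is inside the annotated span of RPH3A, on the opposite strand of the gene, and the capitals mark the searched letters.
RPH3A match, chr12:112791552-112791566, minus strand: CAGCACCacGGACAG
These are matches of letters within a fixed window and do not show binding.

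Of the 55 members, 49 had enough counts to be tested, of which SNAP25 and SV2C passed the filter through their treated libraries alone. In VPA-treated cells, 23 were up-regulated and 0 down-regulated, against 12.0% up-regulated and 0.503% down-regulated among all genes tested. The lowest log2 fold change of a member was -0.31, so the down-regulated count was also 0 at an unadjusted p under 0.05 and with DESeq2. Without SNAP25 and SV2C, 21 of 47 were up-regulated. In a fit of the 13882 genes with at least 10 counts per library, 22 of those 47 were, against 8.49% of the genes in that fit. At the adjusted p alone, 37 members were higher and 4 lower, and 8 did not pass, where 32.9% of all genes were higher and 30.0% lower. In 38 tested members every VPA-treated library lay above every untreated one, a pattern seen in 34.8% of all genes, and in 3 members every one lay below, as in 31.0% of all genes. The median log2 fold change was 0.89 over the tested members and 0.0058 over all genes. Members took up 1191 to 1210 CPM (counts scaled to a fixed library total) in untreated and 1803 to 1824 CPM in VPA-treated libraries. The plot of every member by library shows where the groups separate.

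**Figure D1:**
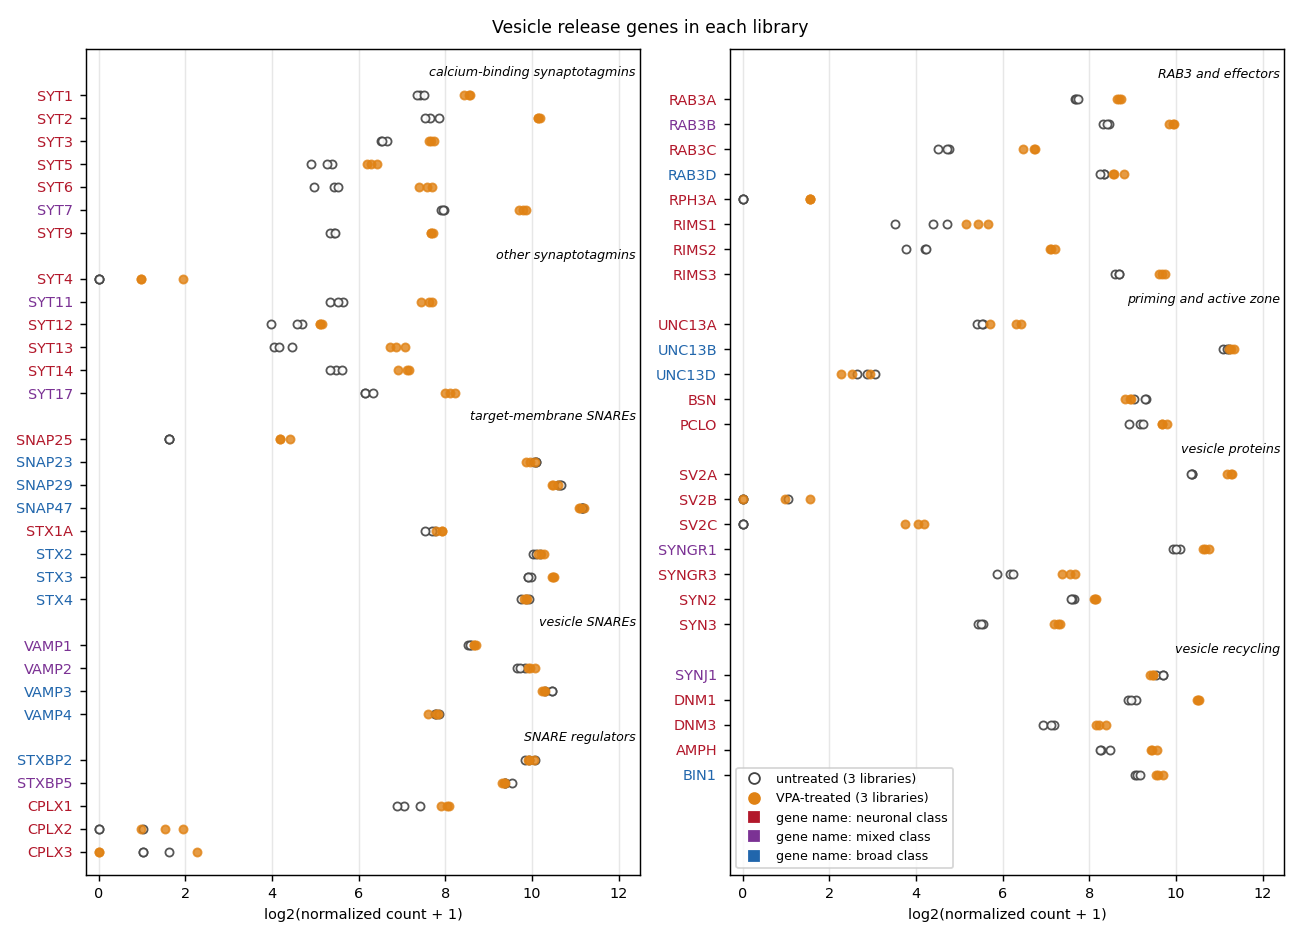
Normalized counts of the 55 members in each of the 6 libraries, on a log2(normalized count + 1) axis, with open points for untreated and filled points for VPA-treated libraries and gene names coloured by class. The synaptotagmins and RAB3 effectors separate clearly between the groups, while most SNARE points of the broad class lie on top of each other.

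All 7 calcium-binding synaptotagmins were up-regulated, against 12.0% of all genes tested. SYT2 (chr1:202590596-202710454, minus strand), a fast calcium sensor of brainstem and neuromuscular synapses, had 199.8, 229 and 184 normalized counts in the untreated and 1133, 1172 and 1125 in the VPA-treated libraries. This was a 5.59-fold rise (log2 fold change = 2.48, SE = 0.069, adjusted p = 2.39e-17 in edgeR), the highest fold of the 7. SYT7 (chr11:61513714-61588387, minus strand), a slower sensor that also serves lysosome exocytosis in other tissues, had 237, 251 and 245 untreated and 924, 880.4 and 832 treated counts, a 3.6-fold rise (log2 fold change = 1.85, SE = 0.066). In both genes the lowest treated library was more than 3 times the highest untreated one. SYT9 (chr11:7238778-7469043, plus strand), a fast sensor of limbic neurons and secretory cells, rose from 42.5, 39.8 and 43.0 to 204, 202 and 209 (log2 fold change = 2.29, SE = 0.12). SYT6, a sensor in the sperm acrosome as well as in brain, rose from 42.5, 45.0 and 30.4 to 168, 207 and 191 (log2 fold change = 2.26, SE = 0.14). The treated libraries of these 2 genes were thus close to each other in level and more than 3 times the highest untreated library.

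The other calcium sensors about doubled. SYT1 (chr12:78863982-79452008, plus strand), the main fast sensor of forebrain synapses, had 171, 162 and 182 untreated and 371, 346 and 376 treated counts (log2 fold change = 1.09, SE = 0.082). SYT3 had 90.1, 99.4 and 91.3 against 204, 198 and 214 (log2 fold change = 1.13, SE = 0.10). SYT5, found on dense core vesicles, had 29.0, 40.8 and 37.8 against 76.7, 72.3 and 85.2 (log2 fold change = 1.12, SE = 0.16). None of the 3 had overlapping groups. Without the first untreated library the SYT5 log2 fold change was 0.98 and the gene was no longer called up-regulated.

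Synaptotagmins that bind calcium poorly or not at all had a median log2 fold change of 1.90 over 5 tested, beside 1.85 over the 7 calcium sensors. SYT13 (chr11:45240302-45286341, minus strand) had the largest change of the family, from 15.5, 20.9 and 16.8 to 105, 133 and 115 counts (log2 fold change = 2.72, SE = 0.18). SYT11, a regulator of vesicle recycling that is also expressed outside neurons, rose from 39.3, 49.2 and 45.1 to 196, 172 and 206 (log2 fold change = 2.10, SE = 0.13). SYT17, which lacks a membrane span, rose from 70.4, 70.1 and 79.8 to 296, 255 and 274 (log2 fold change = 1.90, SE = 0.11). SYT14 rose from 43.5, 39.8 and 48.3 to 120, 138 and 143 (log2 fold change = 1.60, SE = 0.14). In each of these genes the lowest treated library was more than 2 times the highest untreated one. SYT12 was higher without reaching the fold threshold (20.9 ± 5.41 to 33.9 ± 0.52, SD, n = 3; log2 fold change = 0.70), a call that was lost with DESeq2 (adjusted p = 0.11) and without the third untreated library (log2 fold change = 0.49, adjusted p = 0.0759). SYT4, an activity-induced member, was listed at 0, 0 and 0 reads in untreated and at 3, 1 and 1 in VPA-treated libraries, too few to be tested. In all, 11 of 12 tested synaptotagmins were up-regulated, whether or not they sense calcium, and their median log2 fold change was 1.88. Among all genes tested 12.0% were up-regulated. Their median normalized count was 121, and of all genes between 50 and 200 counts 24.3% were up-regulated.

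The SNAREs that carry out fusion had a median log2 fold change of 0.055. Of 12 tested, 1 (8.33%) was up-regulated, 3 others were higher, 2 were lower and 6 did not pass, close to the 12.0% up-regulated and 32.9% higher among all genes. The up-regulated gene was SNAP25 (chr20:10218830-10307418, plus strand), the target-membrane SNARE of nerve terminals and a substrate of botulinum toxins. It had 2, 2 and 2 reads in the untreated and 18, 21 and 18 in the VPA-treated libraries, an 8.30-fold difference (log2 fold change = 3.05, SE = 0.42). It passed the filter on low counts through the treated libraries alone, so a difference was a condition of its being tested and no p is given. Without SNAP25, 0 of the 11 other SNAREs were up-regulated, and their median log2 fold change was 0.007. The SNAP25 groups did not overlap, and the treated level was still low, at 0.90 normalized counts per kb of exon. SNAP23, its paralog in most tissues, was at 171 per kb in the same treated cells, with 1065, 1095 and 1095 untreated and 928, 1073 and 994 treated counts (log2 fold change = -0.12, 95% interval -0.23 to -0.014, adjusted p = 0.0595). SNAP29, which fuses autophagosomes with lysosomes, was lower by a small amount (1594 ± 44.4 to 1462 ± 81.4, log2 fold change = -0.12), its groups overlapped, and its direction turned when libraries were scaled by their totals or by ribosomal protein genes. Its adjusted p also missed the threshold without the second or the third untreated library or the first or the third treated one. SNAP47 did not pass (log2 fold change = -0.033, 95% interval -0.12 to 0.051).

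Among the syntaxins, the neuronal STX1A (chr7:73699210-73719669, minus strand) had 216, 205 and 183 untreated and 242, 243 and 220.2 treated counts, a rise of 1.17-fold (log2 fold change = 0.22, SE = 0.089, adjusted p = 0.0349). This call was lost with DESeq2 (adjusted p = 0.214), without the filter on low counts (0.0734) and without the second (0.0694) or the third (0.19) untreated or the first (0.0876) or second (0.109) treated library. STX3, a syntaxin of apical epithelial membranes and of ribbon synapses, rose more, from 974 ± 29.2 to 1427 ± 29.2 (log2 fold change = 0.55, SE = 0.048). STX4, which serves exocytosis at the plasma membrane of many cells, had 936, 862 and 971 against 949, 897 and 936 (log2 fold change = 0.0070, 95% interval -0.10 to 0.11). For STX2 the interval was -0.0020 to 0.21. Among the 4 member syntaxins the largest change was therefore in a broad gene, and the neuronal one changed by 1.17-fold.

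The 4 vesicle SNAREs had log2 fold changes between -0.14 and 0.24. VAMP2 (chr17:8159147-8162948, minus strand), the main vesicle SNARE of brain synapses, had 909, 804 and 849 untreated and 987, 959 and 1070.0 treated counts (log2 fold change = 0.24, SE = 0.058). VAMP1, used at the neuromuscular junction, had 387, 364 and 377 against 403, 414 and 407 (log2 fold change = 0.12, 95% interval -0.011 to 0.25), so its groups did not overlap while its adjusted p of 0.124 missed the threshold. VAMP3 (cellubrevin), used for endosomal recycling in most cells, was lower, with 1266, 1408 and 1411 against 1265, 1245 and 1202 (log2 fold change = -0.14, SE = 0.051), a direction that turned when libraries were scaled by ribosomal protein genes. The VAMP3 call was also lost without the second or the third untreated library or the second or the third treated one. VAMP4 of the Golgi did not pass (95% interval -0.23 to 0.11). Per kb of exon, VAMP3 had the highest untreated level of all members (498) and VAMP2 stood at 252, so HEK293T cells already held transcripts of the vesicle SNARE of neurons.

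Of the 3 tested SNARE regulators, 1 was higher, too few to be set apart from the 32.9% of all genes tested. CPLX1, the complexin of many forebrain and brainstem synapses, went from 139 ± 26.6 to 257 ± 17.4 (log2 fold change = 0.89, SE = 0.11), below the fold threshold. STXBP2, a syntaxin-binding protein of secretory epithelia and immune cells, did not pass (990 ± 79.8 to 995 ± 51.7, 95% interval -0.11 to 0.12), nor did STXBP5 (tomosyn, which sequesters target SNAREs; 95% interval -0.19 to 0.038). CPLX2 was listed at 0, 1 and 0 reads against 3, 1 and 2, and the retinal CPLX3 at 1, 1 and 2 against 0, 0 and 4, and neither was tested.

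RAB3 proteins and their effectors rose together, with 5 of 7 tested up-regulated and all 7 higher (median log2 fold change = 1.19). Among all genes tested 12.0% were up-regulated and 32.9% higher. RIMS2, an active zone protein that links RAB3 to calcium channels, had 17.6, 17.8 and 12.6 untreated and 135, 138 and 147 treated counts, an 8.67-fold rise (log2 fold change = 3.12, SE = 0.17, adjusted p = 6.53e-13). RAB3C (chr5:58582152-58859394, plus strand), a vesicle GTPase, rose from 21.7, 26.2 and 25.2 to 88.2, 107 and 105 (log2 fold change = 2.03, SE = 0.17). RAB3B (chr1:51907956-51990700, minus strand), present in endocrine cells and in some neurons, rose from 319, 349 and 336 to 907, 971 and 994 (log2 fold change = 1.52, SE = 0.062). These 3 genes had a clear gap between the groups. RIMS3, a short RIM protein, rose from 382, 412 and 408 to 823, 851 and 775 (log2 fold change = 1.03, SE = 0.061), and RIMS1, the RIM of most central synapses, from 10.4, 25.1 and 19.95 to 42.2, 34.7 and 49.8 (log2 fold change = 1.19, SE = 0.25). Both lay near the fold threshold. Without the first untreated library their log2 fold changes were 0.99 and 0.90, and RIMS3 was also at 0.99 without the second treated library, values below the threshold.

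RAB3A (chr19:18196784-18204042, minus strand), the most abundant RAB3 of brain, had 202, 207 and 211 untreated and 422, 398 and 412 treated counts. Its log2 fold change of 0.99 (SE = 0.074) fell just short of the threshold, although its rise of 1.98-fold was close to the 2.04-fold of RIMS3. RAB3D, the RAB3 of exocrine and immune granules, rose less, with 319.9, 325 and 302 against 374, 446 and 379 (log2 fold change = 0.34, SE = 0.078). RPH3A (rabphilin), an effector of RAB3A, was listed at 0 reads in each untreated and at 2 in each treated library. It was not tested after the filter on low counts. In the fit without that filter its adjusted p was 0.0485 and that of SYT4 0.0806.

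Priming and active zone genes gave 0 up-regulated of 4 tested, too few to be set apart from the 12.0% of all genes tested. At the adjusted p alone, 3 were higher and 1 was lower, where 32.9% of all genes were higher and 30.0% lower. UNC13A (chr19:17601336-17688354, minus strand), the main priming factor of excitatory synapses, had 41.4, 46.1 and 45.1 untreated and 78.6, 51.1 and 84.3 treated counts (log2 fold change = 0.69, SE = 0.18). Its second treated library lay close to the untreated range. UNC13B, a paralog that also works in kidney and other tissues, had 2178, 2321 and 2371 against 2480.0, 2392 and 2585 (log2 fold change = 0.12, SE = 0.045, adjusted p = 0.0271). The UNC13B call was lost with DESeq2 (adjusted p = 0.162) or its size factors (0.0503), without the filter on low counts (0.085) and without the first (0.142) or second (0.0637) untreated or the third treated library (0.154). PCLO (piccolo), an active zone scaffold, rose from 552 ± 65.6 to 840.0 ± 37.2 (log2 fold change = 0.61, SE = 0.070). BSN (bassoon, chr3:49554477-49673130, plus strand), the partner scaffold of piccolo, went the other way, with 635, 624 and 518 untreated and 496, 488 and 448 treated counts (log2 fold change = -0.31, SE = 0.073, adjusted p = 0.000923). It was the sole neuronal member that was lower, and the groups did not overlap. When libraries were scaled by ribosomal protein genes its log2 fold change was -0.048 and it no longer passed (adjusted p = 0.614). UNC13D, which primes lymphocyte granules, had 5, 6 and 7 reads against 7, 4 and 5 and was not tested.

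All 6 tested vesicle proteins were higher and 3 were up-regulated (2 of 5 without SV2C), against 32.9% and 12.0% of all genes tested. SYN3 (chr22:32507820-33058381, minus strand), a synapsin that tethers vesicles to each other, rose from 42.5, 46.1 and 44.1 to 155, 158 and 145 counts (log2 fold change = 1.78, SE = 0.13). SYNGR3, a synaptogyrin of the vesicle membrane, rose from 70.4, 57.6 and 74.5 to 203, 165 and 186 (log2 fold change = 1.45, SE = 0.12). SV2C (chr5:75847464-76353939, plus strand), a vesicle glycoprotein of basal ganglia neurons and a botulinum toxin receptor, was listed at 0, 0 and 0 reads in untreated and at 18, 16 and 13 in treated libraries. Against 3 reads over the untreated group, which is the limit that a count of 0 allows, this was at least 14.4-fold higher. The untreated libraries thus gave no read of a gene that all treated libraries held.

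The vesicle protein genes with more counts rose by less than 2-fold. SV2A (chr1:149903318-149917844, minus strand), the binding site of the antiseizure drug levetiracetam, had 1318 ± 8.12 untreated and 2424 ± 92.2 treated counts (log2 fold change = 0.88, SE = 0.045). At 276 untreated and 506 treated normalized counts per kb it was the neuronal member with the highest level in both groups. SYNGR1 rose from 1030.0 ± 57.1 to 1639 ± 82.5 (log2 fold change = 0.67) and SYN2 from 194 ± 4.51 to 278 ± 5.09 (log2 fold change = 0.52). SV2B was listed at 0, 0 and 1 reads against 1, 2 and 0, so of the 3 SV2 genes only SV2A was expressed at a high level in untreated cells.

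Among recycling genes, DNM1 (chr9:128203379-128255244, plus strand), the dynamin of nerve terminals that cuts endocytic vesicles from the membrane, had 542, 475 and 496 untreated and 1433, 1453 and 1486 treated counts, a 2.89-fold rise (log2 fold change = 1.53, SE = 0.055, adjusted p = 1.42e-15). DNM3, a dynamin of brain and testis, rose from 121, 143 and 138 to 285, 333 and 296 (log2 fold change = 1.18, SE = 0.095). AMPH (chr7:38383704-38631373, minus strand), which bends membrane and recruits dynamin, rose from 309, 304 and 354 to 687, 694 and 754 (log2 fold change = 1.14, SE = 0.069). These 3 neuronal genes were all up-regulated, against 12.0% of all genes tested. BIN1 (chr2:127048023-127107154, minus strand), the amphiphysin of muscle and most other tissues, also rose, with 534, 545 and 577 against 834, 737 and 772 (log2 fold change = 0.50, SE = 0.061). SYNJ1 (synaptojanin), a lipid phosphatase that uncoats vesicles, was lower, from 799 ± 44.3 to 696 ± 17.0 (log2 fold change = -0.20, SE = 0.056), which also turned under that ribosomal protein scaling.

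**Figure D2:**
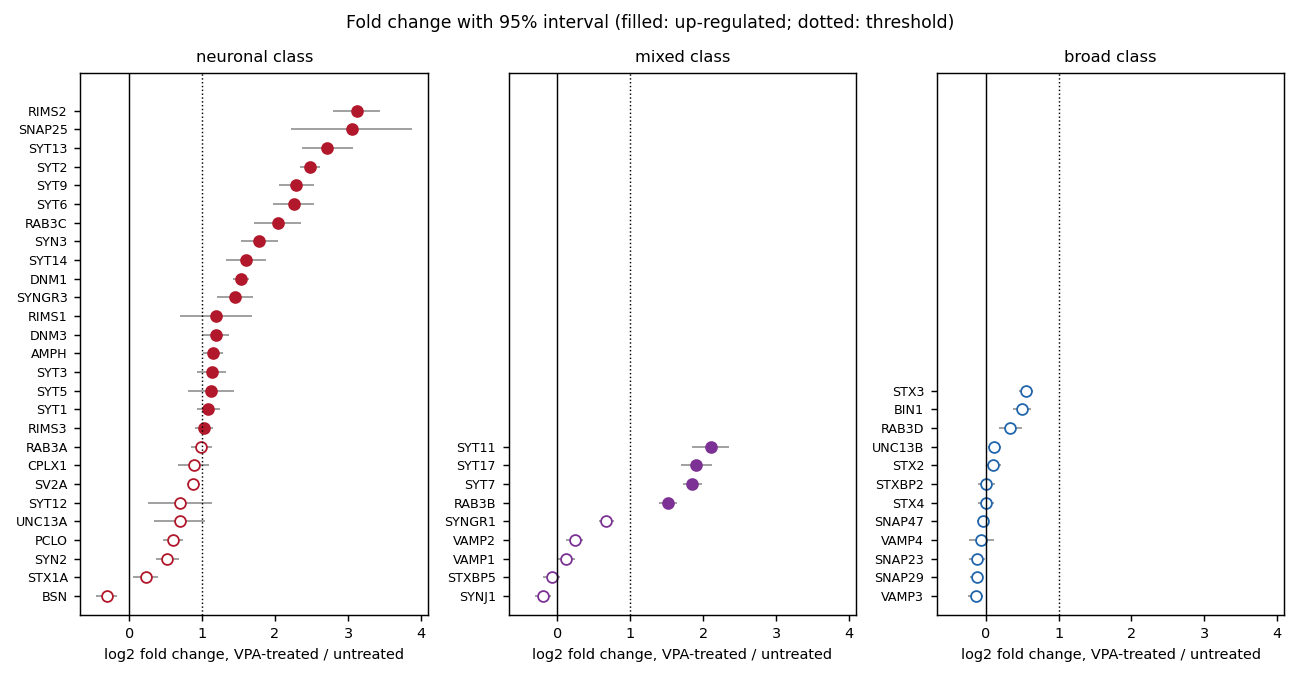
The log2 fold change (VPA-treated over untreated) of 48 tested members, with 95% intervals from the fitted standard errors, in one panel per class, where filled points are up-regulated and the dotted line marks the fold threshold. SV2C is left out because its untreated libraries held 0 reads. All neuronal members except BSN lie right of 0, whereas the 12 broad members lie between -0.14 and 0.55.

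By class, 19 of 28 tested neuronal members were up-regulated, 27 were higher and 1 was lower. The shares among all genes tested were 12.0%, 32.9% and 30.0%. The median log2 fold change of the class was 1.16, which did not move with SV2C set to its bound. Without SNAP25 and SV2C, 17 of 26 were up-regulated and the median was 1.14. In the mixed class 4 of 9 were up-regulated (SYT7, SYT11, SYT17 and RAB3B), with a median of 0.67. In the broad class 0 of 12 were up-regulated, too few to be set apart from the 12.0% of all genes tested. At the adjusted p alone 4 were higher (STX3, BIN1, RAB3D and, not in every fit, UNC13B), close to the 32.9% of all genes. Another 2 were lower (SNAP29 and VAMP3, both with a direction that depended on the scaling), where 30.0% of all genes were. The other 6 did not pass the adjusted p, and the median of the class was 0.0076. The groups overlapped in 0 of the 28 neuronal and in 7 of the 12 broad members, and in 5234 of the 15298 genes tested. The 28 include SNAP25 and SV2C, which passed the filter through their treated libraries alone. Summed over the class, neuronal transcripts went from between 5402 and 5535 normalized counts per untreated library to between 11229 and 11525 per treated library. Broad transcripts went from between 13429 and 13921 to between 14323 and 14407.

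The classes also differed in how well they were counted, with a median untreated normalized count, not corrected for length, of 80.6 in the neuronal, 376 in the mixed and 1037 in the broad class. Genes of low count were called up-regulated more often in these libraries. Of all genes tested, 29.4% were up-regulated at a mean normalized count under 50, 24.3% between 50 and 200, 5.78% between 200 and 1000, and 0.732% at 1000 and over. In the same ranges, 3 of 4, 10 of 12, 6 of 11 and 0 of 1 neuronal members were up-regulated. The lowest range includes SNAP25 and SV2C, which passed the filter through their treated libraries alone. Its 3 of 4 is therefore not read against the 29.4%. Broad members were present only in the upper ranges, with 0 of 5 and 0 of 7 called, too few to be set apart from 5.78% and 0.732%. Between 200 and 1000 counts, where both classes had 5 or more members, the median log2 fold change was 1.03 over 11 neuronal and 0.0083 over 5 broad members. It was 0.18 over 6 mixed members and 0.011 over all genes. The ranges use the mean over all 6 libraries, so a rise after VPA itself lifts a gene in range. DNM3, for instance, had a mean of 134 untreated and 305 treated counts. The classes were thus not matched on untreated count. In bulk RNA, a larger share of expressing cells and more RNA per cell cannot be told apart.

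**Figure D3:**
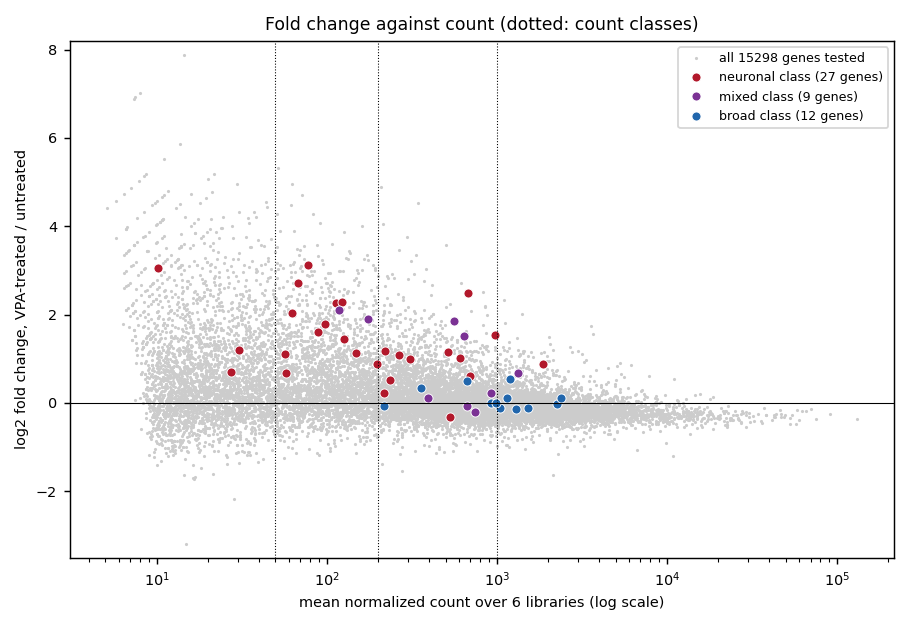
The log2 fold change of each tested gene against its mean normalized count over the 6 libraries (log axis), with 15298 genes in grey, which include SV2C, and the other tested members coloured by class, and with dotted lines at 50, 200 and 1000 counts. The broad members sit at counts above 200 near a log2 fold change of 0, and between 200 and 1000 counts the neuronal members lie mostly above them.

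For 7 pairs, the log2 ratio of a neuronal or mixed gene to its broad paralog was computed within each library, which cancels the library scaling. The ratios are of counts, not corrected for gene length, so only their change is read. The SNAP25 to SNAP23 ratio was -8.70, -8.72 and -8.72 in untreated and -5.71, -5.70 and -5.81 in VPA-treated libraries, a difference of 2.97. The RAB3A to RAB3D ratio went from -0.66, -0.65 and -0.52 to 0.17, -0.16 and 0.12, a difference of 0.65. The AMPH to BIN1 ratio went from -0.79, -0.84 and -0.71 to -0.28, -0.087 and -0.034, also a difference of 0.65. In these 3 pairs the treated ratios lay above the untreated ones with a gap wider than the spread within either group. The first pair rests on 2 reads of SNAP25 in each untreated library. SNAP25 also passed the filter on low counts through its treated libraries alone.

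The UNC13A to UNC13B ratio changed by 0.53, with treated libraries at -4.97, -5.54 and -4.93 and untreated ones at -5.70, -5.64 and -5.70. The VAMP2 to VAMP3 ratio changed by 0.37, from -0.48, -0.81 and -0.73 to -0.36, -0.38 and -0.17. The VAMP1 to VAMP3 ratio changed by 0.26, from -1.71, -1.95 and -1.90 to -1.65, -1.59 and -1.56, and these 2 pairs share VAMP3. The STX1A to STX4 ratio changed by 0.22, with untreated values of -2.11, -2.07 and -2.41 overlapping treated values of -1.97, -1.88 and -2.09. All 7 differences pointed toward the neuronal or mixed gene. Other pairings were not computed, and STX3, a broad syntaxin outside these pairs, had a larger log2 fold change (0.55) than STX1A (0.22). In an exact two-sided permutation test over the 6 libraries the p was 0.1 for 6 pairs, the smallest that 3 against 3 allows, and 0.2 for STX1A to STX4 (adjusted p = 0.117 and 0.2 over the 7 pairs), so no pair could pass 0.05.

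**Figure D4:**
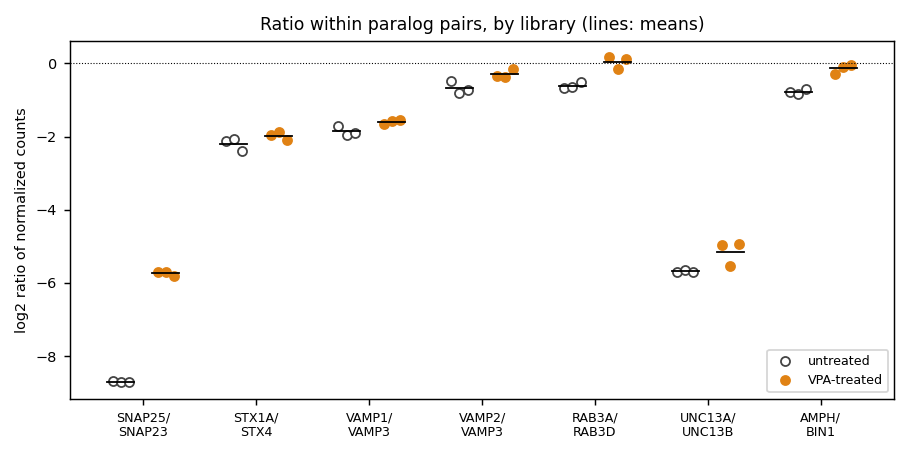
The log2 ratio of normalized counts of the neuronal or mixed gene to its broad paralog for 7 pairs, with a point per library (open untreated, filled VPA-treated) and lines at the group means. SNAP25 stays far below SNAP23 in both groups, the RAB3A to RAB3D ratio moves from below 0 to around 0, and the STX1A to STX4 points of the groups overlap.

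A wider list of 106 other genes of vesicle docking, fusion and recycling had 80 tested genes. Of these, 20 were up-regulated and 0 down-regulated, against 12.0% and 0.503% of all genes tested. At the adjusted p alone 47 were higher and 19 lower, against 32.9% and 30.0% of all genes. The median log2 fold change of the list was 0.24. Of the 10 genes at 0 in every library, 5 lie on chromosome X. The up-regulated genes with the smallest adjusted p included SNCB (beta-synuclein), a presynaptic protein, which went from 61.6 ± 6.76 to 435 ± 12.2 (log2 fold change = 2.82). SNAP91, a clathrin adaptor of synaptic vesicles (log2 fold change = 1.93), STXBP6 (amisyn, which binds syntaxin, 1.56), DOC2A, a calcium sensor of spontaneous release (1.45), and SCAMP5, a vesicle membrane protein (1.35), also rose.

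Markers of other cell types were read beside these results, where 12.0% of all genes tested were up-regulated and 32.9% higher. Of 10 genes typical of HEK293 cells, 9 were tested, of which 6 were higher, 3 of them up-regulated (NEFL, KRT8 and PAX2), and 3 were lower (EYA1, CDH2 and VIM, log2 fold changes -0.68, -0.37 and -0.27). Their summed level was 1010 to 1030 CPM in untreated and 1255 to 1328 in VPA-treated libraries, and PAX8 had 0 or 1 reads. That sum includes the neurofilament genes NEFL (995 to 2069 mean normalized counts) and NEFM (4348 to 7952), while VIM went from 10739 to 8931. It is therefore not read as a rise of kidney or embryonic markers. Of 10 neuronal markers, 6 were tested, 6 were higher and 5 were up-regulated (GAP43, NCAM1, TUBB3, RBFOX3 and MAP2), with a summed level of 91.5 to 97.8 against 201 to 213. ELAVL3 had at most 1 read and ELAVL4 at most 4 reads in any library, STMN2 had 0 or 1 untreated and 4 to 11 treated reads, and DCX on chromosome X was listed at 0. Of 6 glial markers, 5 were tested, 5 were higher and 3 were up-regulated (AQP4, MBP and GFAP), at 11.8 to 13.0 against 27.7 to 28.6 CPM. Of 8 neuroendocrine markers, 4 were tested and 0 up-regulated, with 2 higher (CHGB and INSM1), at 6.18 to 7.73 against 8.38 to 9.53, while DBH was at 0. The part of these markers in the results was not tested.

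Some members share exon bases with another gene, and the strand setting of the counting is not given in the sources used here. SYT2 shares 27% of its exon bases with PPP1R12B on the opposite strand, whose log2 fold change was 0.35. RAB3A shares 9.24% with MPV17L2, which had 5721 counts over the libraries and a log2 fold change of -0.057, and SNAP47 shares 22.8% with JMJD4. VAMP1 shares 10.4% with TAPBPL, which had 55 counts in all. RAB3D overlaps TMEM205 on the same strand over 3.28% of its exon bases, and TMEM205 had 6829 counts over the libraries and a log2 fold change of 0.78, above the 0.34 of RAB3D. For these genes the counts may hold or lack reads of the partner.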

How the data were processed

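RNA-seq libraries of HEK293T cells (3 untreated, 3 VPA-treated) were analysed. The deposited values are raw counts per gene. The authors used SOAPnuke to clean strand-specific paired-end reads, then STAR on hg38 for alignment (2.7.10b in the submitters' processing notes) and htseq-count for counting (HTSeq 2.0.1 in the notes). The gene annotation is not given in the sources used here. The 5 summary lines that name no gene were dropped. They held reads outside genes (6.8% to 7.69%), reads on several genes (1.97% to 2.1%) and multi-mapping reads (2.81% to 2.92%). Leaving out non-unique reads lowers counts of genes with close copies.

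Counts were tested with edgeR 4.0.16 (R 4.3.3): TMM, filterByExpr (minimum count 10), robust quasi-likelihood fit, condition as the single term, all 6 libraries, Benjamini-Hochberg over 15298 genes. The thresholds (0.05 and a log2 fold change of 1) are those of the study. The SE is the log2 fold change over the root of F. Ratios of paralogs used a prior count of 0.5. Alternatives were DESeq2 1.42.0, other scalings, filters, thresholds and prior counts, a replicate block, and fits that omit each library in turn. To look for pairing, the group mean of each gene was subtracted from its log CPM in each library. These deviations correlated between same-numbered untreated and treated libraries by 0.139, 0.0214 and 0.0805, and between differently numbered ones by -0.107 to 0.0308. The numbers were not taken as pairs in the main fit, and the fit with the replicate block is given below.

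Coordinates and promoters are from RefSeq (GRCh38.p14), exon lengths and overlaps from GENCODE 44. Members, classes and lists were chosen with earlier results of these data known. Any member could be named. Values in every library are given for up-regulated members whose mean normalized count reached 10 and for paralog pairs, and of the wider list the 6 up-regulated genes of smallest adjusted p were taken, of which 1 is not reported here. Marker genes and genes that share exons with members, as well as reads at or near 0, were named after their values were seen. Intervals and the floor of 3 reads cover counting error or the spread between libraries only.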

Additional observations from a re-analysis of the deposited data

How the results depend on the processing

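Over 733 comparisons of 49 members with an alternative, 692 kept direction and side of the threshold of the joint call (adjusted p and fold). Of the 23 up-regulated members, 16 stayed called in every setting that tested them. With glmTreat 7 were lost (SYT1, SYT3, SYT5, RIMS1, RIMS3, DNM3 and AMPH), of which SYT5, RIMS1 and RIMS3 were also lost without a single library, as given above. SNAP25 and SV2C were not tested under either stricter count filter, nor was RIMS1 with the filter on the mean. Of the 41 members past the adjusted p, 7 did not keep that call in at least 1 setting other than glmTreat and an FDR of 0.01 (SYT12, STX1A, UNC13B, SNAP29, VAMP3, BSN and SYNJ1), and 7 of the 8 others passed it in at least 1. The count of up-regulated members was 21 to 23 on leaving out a library and 16 to 26 otherwise, and the down-regulated count was 0 in each of these fits. Members higher at the adjusted p numbered 35 to 37 on leaving out a library and 16 with glmTreat, which tests against the fold threshold itself and called 12 neuronal members. Lower members numbered 2 to 5 on leaving out a library (2 without the third untreated, the second untreated or the third treated library), 2 with upper quartile scaling, 1 on library totals, 0 on ribosomal protein genes, 2 after a filter of 10 counts per library, 2 after a filter of 50 counts on the mean, 2 at an FDR of 0.01 and 0 with glmTreat. Counting mixed members as broad gave 4 up-regulated broad members. The wider list gave 20 to 25 on leaving out a library and 14 to 27 otherwise.

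The median log2 fold change of all genes was 0.071 with upper quartile scaling, 0.14 when scaled by library totals and 0.27 when scaled by ribosomal protein genes, against 0.0058, and directions of small changes turned with it. Upper quartile scaling gave 0.032 for SNAP47 and 0.0057 for VAMP4. Library totals gave 0.011 for SNAP23, 0.0068 for SNAP29, 0.098 for SNAP47, 0.072 for VAMP4 and 0.054 for STXBP5. Ribosomal protein scaling gave 0.14 for SNAP23, 0.14 for SNAP29, 0.23 for SNAP47, 0.12 for VAMP3, 0.20 for VAMP4, 0.19 for STXBP5 and 0.064 for SYNJ1. BSN stayed negative under every scaling, at -0.33 to -0.048, with an adjusted p of up to 0.614. STX4 and STXBP2 were at -0.018 and -0.016 with DESeq2, -0.0069 and -0.0056 with its size factors, and -0.015 and -0.013 without a filter. On leaving out a library STX4 ranged from -0.048 to 0.038, STXBP2 from -0.051 to 0.066 and VAMP4 from -0.10 to 0.0043. Members near the fold threshold (RAB3A, CPLX1 and SV2A) passed it under some scalings.

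With the replicate number as a block, 23 members were up-regulated, 0 down-regulated, 38 higher and 5 lower, 19 neuronal, 0 broad and 20 genes of the wider list. The paralog ratios kept their direction on leaving out each library and with raw counts. Genes of few reads are limited by depth, so SNAP25, SV2C and the 6 untested members have wide or no errors.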
